A study of Homo sapiens with 24 samples.

Results

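Histone modifiers and chromatin remodellers were examined for N6-methyladenosine (m6A) peaks on their messenger RNAs in U2OS cells, a human osteosarcoma line. The group was defined by gene symbol. It took the KDM, SETD, PRDM, HDAC, KAT, BRD, CHD, PHF, SMARC, ARID, BAZ and CBX families and added BPTF, SUZ12, PHC1 and UBN2 by name, without 2 genes that the rule left out and without antisense genes. With a peak in any of 4 deposited lists required, this gave 105 genes of the 9560 genes that carried a peak, 101 by family prefix and 4 by name. Each member was represented by 1 coding RefSeq transcript, and the members lay on 21 chromosomes. Another 35 protein-coding symbols that fit the naming rule were not analysed here.

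The cells were METTL3 KO, a knockout of the enzyme that writes most m6A on mRNA, or wild type (WT). Each genotype was exposed to UVC (plus UV, 50 J as the labels give the dose) or left unexposed (minus UV). All cells had been grown with 10 µM BrdU, a thymidine analogue, and were incubated for 2 min before lysis. Polyadenylated RNA was precipitated with an antibody against m6A and sequenced with its input. KO plus UV had 2 immunoprecipitated (IP) libraries, KO minus UV 3, WT plus UV 4 and WT minus UV 3, each with an input library, 24 samples in all. The sources used here do not say whether the KO line is 1 clone or whether replicates were separate cultures. The data were 1 peak list per condition, with the start and end of each peak in bases along a transcript. The lists carry no score, count or depth, which leaves each peak's depth unknown, and differences between conditions could not be set against replicate spread. Intervals are 95% Wilson intervals and cover counting error alone, and peaks on 1 transcript are not independent. Each list enters 2 of the 4 comparisons below, so the comparisons share lists.

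As background, m6A is written in the nucleus by the METTL3 and METTL14 complex at short motifs around an adenosine. It is read by YTH domain proteins that affect splicing, translation and decay of the message. Chromatin regulators act in turn on nucleosomes: acetyltransferases and methyltransferases add marks to histone tails, deacetylases and demethylases remove them, bromodomain, PHD finger and chromodomain proteins bind marked tails, and SWI/SNF, ISWI and CHD ATPases slide or evict nucleosomes. Many of their mRNAs are long.

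The 4 lists held 9471 peaks in KO plus UV, 13852 in KO minus UV, 15465 in WT plus UV and 13989 in WT minus UV, the same order as their numbers of IP libraries apart from the equal pair. How far the number of libraries sets the counts below was not tested. A peak list does not measure a level, so neither the knockout nor the cell type could be checked by expression. Of 9 osteoblast lineage markers, RUNX2, COL1A1 and SPARC carried a peak in any list. Of 5 blood markers 0 did, of 5 epithelial markers EPCAM and KRT8 did, and of 5 neuronal markers RBFOX3 did.

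Member peaks numbered 123 in KO plus UV, 209 in KO minus UV, 257 in WT plus UV and 212 in WT minus UV. Members with a peak numbered 59, 77, 94 and 85 of 105 in the same order, that is 56.2%, 73.3%, 89.5% and 81.0%. Over all genes the shares were 57.7%, 72.9%, 83.4% and 74.6%, near those of members in the KO lists and somewhat lower in the WT lists. A peak in every list was found on 48 members, 45.7%, against a background of 41.2% of all genes. Members held more peaks than other genes: those with a WT plus UV peak averaged 2.73 there, against 1.92 over all genes with one, and the KO minus UV means were 2.71 and 1.97. The share with 3 or more peaks in WT plus UV was 47.9% for members and 23.3% for all genes. Members were also longer, with a median genomic length of 55.7 kb against 33.7 kb and a median furthest peak end at base 3437 of the transcript against 1849.5. Median peak width for members was 185 bases in KO plus UV, 186 in KO minus UV, 200.0 in WT plus UV and 201 in WT minus UV.

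**Figure D1:**
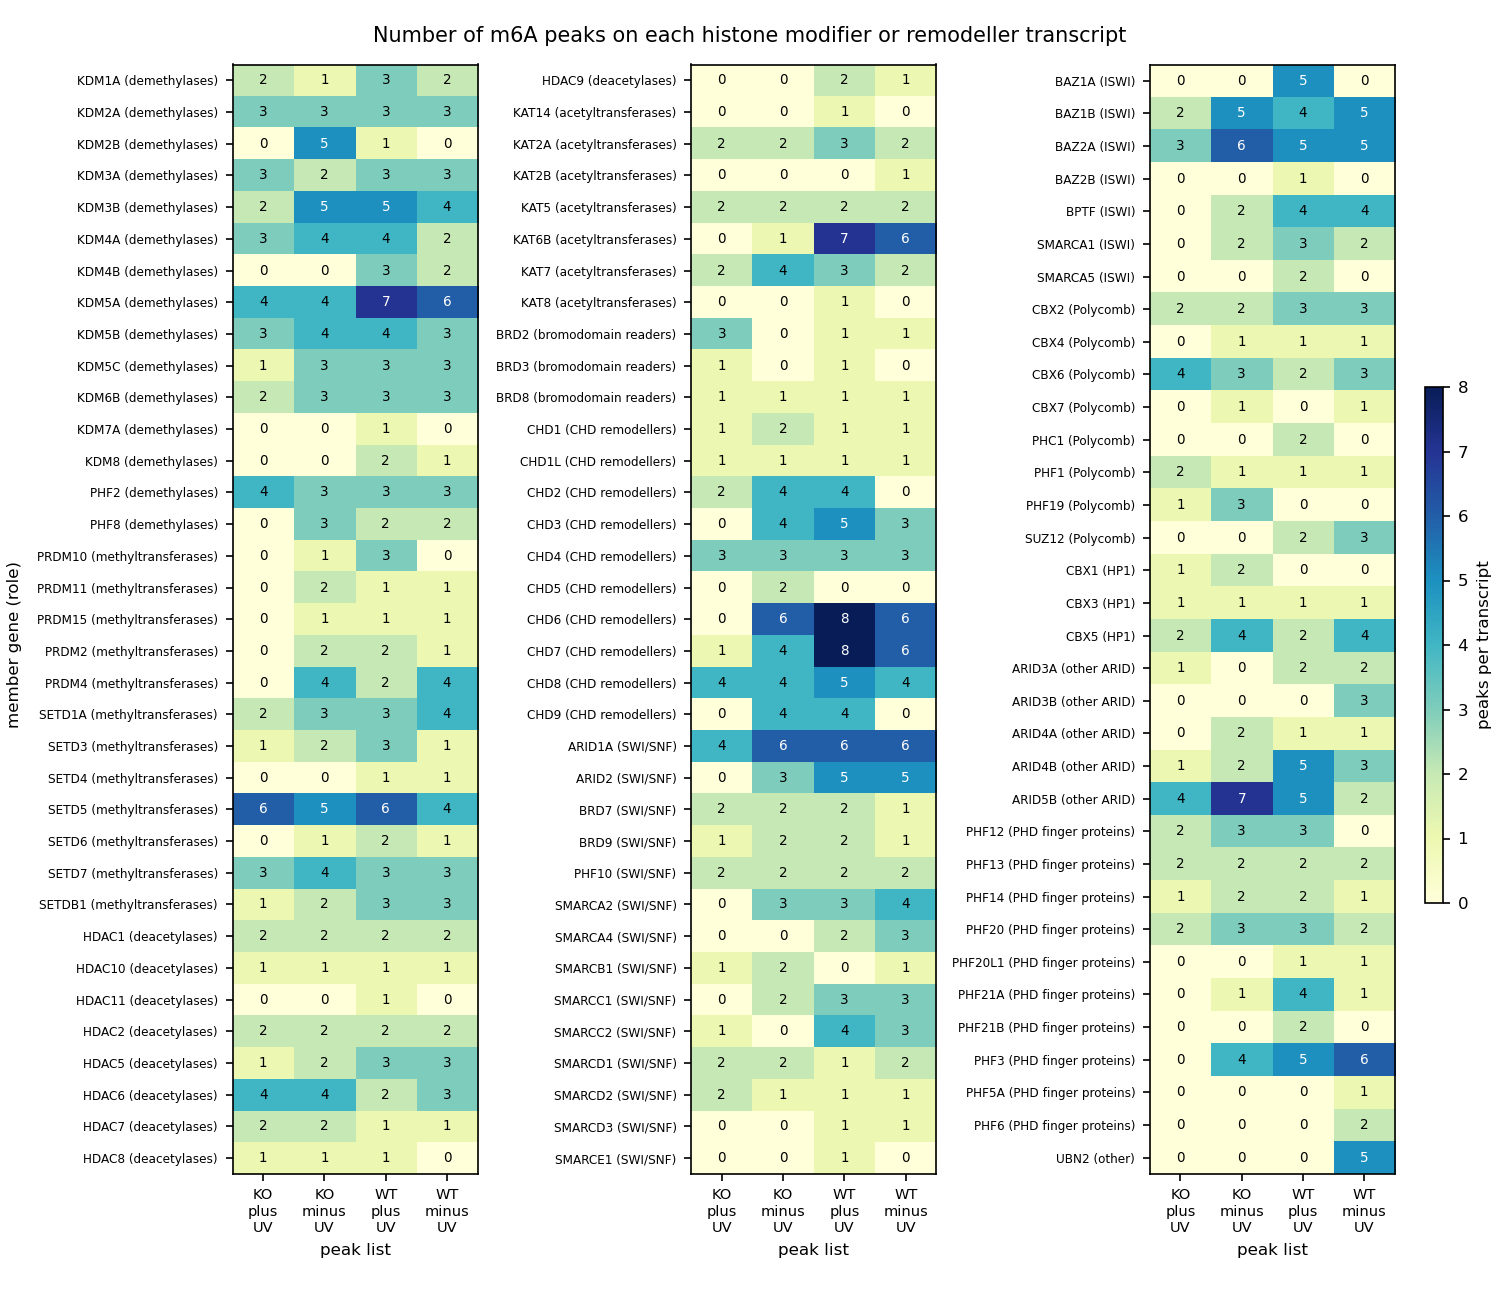
Number of peaks on 104 member transcripts (rows, with the role in brackets) in the 4 peak lists (columns, KO plus UV at the left). Colour and the printed number both give peaks per transcript; CHD6 and CHD7 reach 8 in WT plus UV, and KAT6B holds 0 and 1 in the KO lists against 7 and 6 in the WT lists.

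Several members carried peaks at nearly the same places in all 4 conditions. CHD4, the ATPase of the NuRD repressor complex (chromosome 12, 6570082 to 6607379, GRCh38), had 3 peaks in each list. Its last peak spanned bases 4993 to 5219 in KO plus UV, 4991 to 5218 in KO minus UV and 4991 to 5224 in both WT lists. CBX5, the heterochromatin protein HP1 alpha (chromosome 12, 54230942 to 54280122), had a peak at bases 262 to 418 in every list, with both ends identical. A second CBX5 peak ran from 708 to 887 in KO plus UV, 709 to 891 in KO minus UV, 708 to 883 in WT plus UV and 704 to 883 in WT minus UV. CBX3, or HP1 gamma, had its single peak at 351 to 535 in KO plus UV, 353 to 519 in KO minus UV and 356 to 536 in both WT lists. HP1 proteins bind methylated histone H3 lysine 9, and these peaks of CHD4, CBX5 and CBX3 overlapped in all 4 lists. CBX5 had 2 further peaks in each list without UV, at different places.

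The deacetylases HDAC1 and HDAC2, catalytic subunits of NuRD and other repressors, each carried 2 peaks in every list. HDAC1 had its second peak at 1251 to 1471 in KO plus UV, 1231 to 1467 in KO minus UV, 1281 to 1479 in WT plus UV and 1271 to 1476 in WT minus UV. KAT5, the catalytic subunit of the TIP60 acetyltransferase complex, and PHF13, a PHD finger protein, had 2 peaks in each list as well. PHF10, a PBAF subunit, also had 2. Equal counts did not always mean equal places: KDM2A, a histone H3 lysine 36 demethylase, had 3 peaks in each list and no region found in all 4.

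The members with most peak sequence were large remodellers and modifiers. Summed over the lists, CHD8 led with 5279 bases, followed by ARID1A with 5275, BAZ2A with 5147, KDM5A with 4977, ARID5B with 4744 and SETD5 with 4418. CHD7, HDAC6, CHD6 and CBX2 completed the 10 longest. CHD8, a chromodomain helicase mutated in autism, had 4 peaks in KO plus UV, 4 in KO minus UV, 5 in WT plus UV and 4 in WT minus UV. ARID1A, the DNA-binding subunit of BAF and a frequent tumour suppressor (chromosome 1, 26696015 to 26782104), had 4, 6, 6 and 6. SETD5, a SET domain protein, had 6, 5, 6 and 4. The widest member peak was on ARID5B, a partner of the demethylase PHF2, with 749 bases at 3097 to 3845 in WT plus UV.

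The peaks of SETD5 abutted one another: in WT minus UV they ran 4455 to 4691, 4692 to 4893 and 4894 to 5155. The same stretch was divided at bases 4696, 4885 and 5146 in KO plus UV, at 4708, 4891 and 5147 in KO minus UV and at 4703 and 4884 in WT plus UV. Peak counts on such transcripts depend on how a continuous stretch was divided, and merging peaks within 100 bases is among the alternatives tried.

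Merging overlapping peaks of all lists gave 330 member regions. Of these, 77 (23.3%) were found in every list, against 25.7% of all 20811 regions. A further 46 (13.9%) were found in every list other than KO plus UV (12.4% of all regions), 34 (10.3%) in the WT lists and neither KO list (7.90%), and 6 (1.82%) in the KO lists and neither WT list (2.53%). Both UV lists alone shared 3 member regions (0.909%) and both lists without UV alone shared 4 (1.21%). Over all regions the shares were higher, 1.98% and 3.70%. The width of a region went with the number of lists that held it, the median being 161.5 bases for regions of 1 list, 210.5 for 2, 230.0 for 3 and 275 for 4. A merged region grows with each list that adds a peak, so this order is partly built into the merging. ARID1A, BAZ2A, CHD4, CHD8, KDM5A, KDM5B and PHF2 each held 3 regions found in every list.

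**Figure D2:**
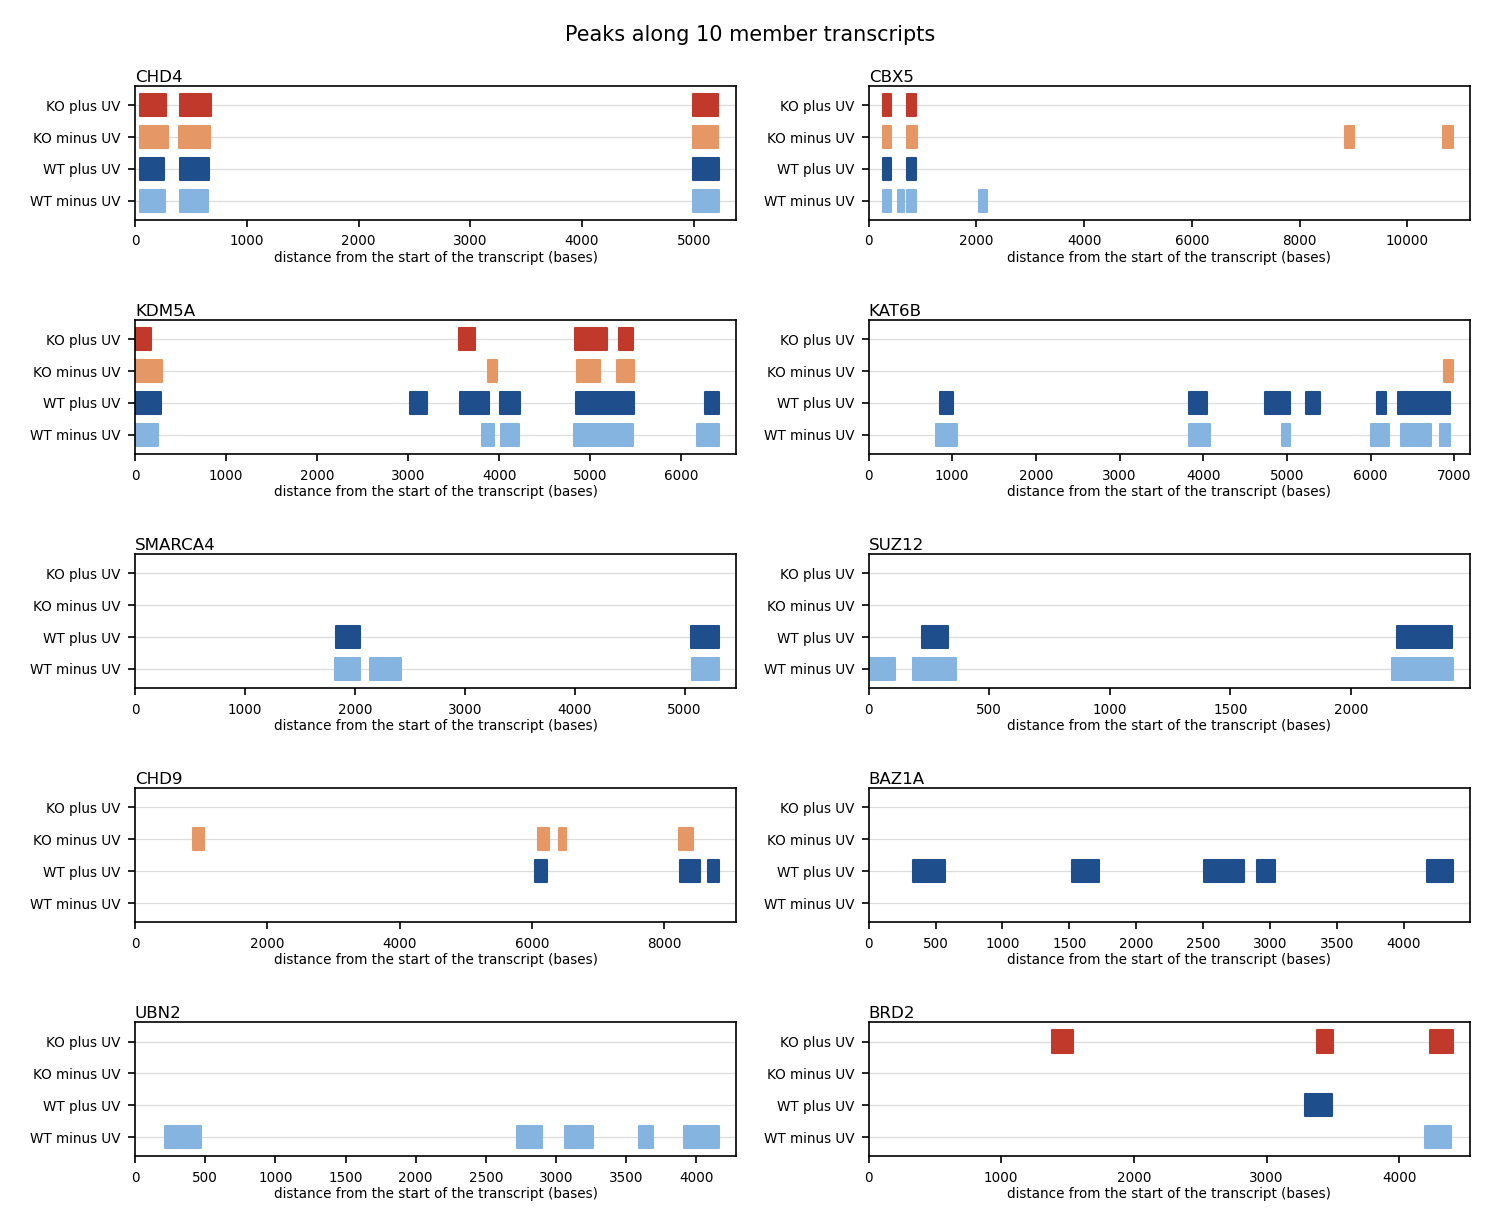
Peaks along 10 member transcripts, with distance from the transcript start in bases on the horizontal axis and 1 row per list, KO plus UV at the top; each bar spans 1 peak. CHD4 shows the same 3 places in every list, SMARCA4 and SUZ12 hold bars in the WT rows alone, BAZ1A in WT plus UV alone and UBN2 in WT minus UV alone.

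Peaks at the very start of the transcript were found on some members, counted here with or without a reference sequence. A peak beginning within the first 50 bases was present on 12 of 59 members with a peak in KO plus UV (20.3%), 17 of 77 in KO minus UV (22.1%), 17 of 94 in WT plus UV (18.1%) and 16 of 85 in WT minus UV (18.8%). Over all genes the shares were 18.4%, 17.9%, 19.9% and 18.0%. KDM5A, a histone H3 lysine 4 demethylase, had such a peak at 1 to 170 in KO plus UV, 1 to 296 in KO minus UV, 1 to 283 in WT plus UV and 1 to 250 in WT minus UV. In the same order of lists, HDAC1 had it at 1 to 165, 1 to 161, 1 to 150 and 1 to 160, and PHF10 at 1 to 165, 1 to 169, 1 to 168 and 1 to 168. KAT2A, the GCN5 acetyltransferase of SAGA, had it at 15 to 280, 9 to 200, 16 to 220 and 15 to 210. The first 30 bases after the RefSeq gene start (GRCh38.p14) are shown for these 4, the members with a start peak in every list whose start in the sequence table coincides with the outer end of the annotated gene. The first base and any GGAC, a core of the m6A motif, are in capitals. PHF10 was chosen for its start peak after its values were seen. The listed transcript may begin elsewhere.
HDAC1 (chr1:32292083-32292112, plus strand): CccctcccccctgggtcGGACgctgagcgg
KAT2A (chr17:42121338-42121367, minus strand): Gctggttgcccatgcggccctagggctggg
KDM5A (chr12:389291-389320, minus strand): Gacagcacggtaacttccggaaaagtcctg
PHF10 (chr6:169724471-169724500, minus strand): Gagtacaacgccgggccgtggggagccagg

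As background, antibodies against m6A also bind m6Am, a related modification of a first adenosine next to the cap. Of the 4 sequences, 0 begin with A, and 1 holds GGAC. A table entry was available for 86 members. Among the 21 of them with a start peak in any list, 6 began with A (28.6%, interval 13.8 to 50.0), and among the 65 without one 25 did (38.5%, 27.6 to 50.6). Over all genes with an entry, 966 of 1844 with a start peak began with A (52.4%), as did 2598 of 5886 with peaks elsewhere alone (44.1%). The 52.4% lay above the interval of the members with a start peak. The 44.1% lay within the interval of the members without one. GGAC, searched on the sense strand of the first 50 bases, was held by 2 of the 21 members with a start peak (9.52%, 2.65 to 28.9) and by 8 of the 65 without one (12.3%). It was held by 20.6% of all genes with a start peak, within that interval, and by 18.8% of all 27305 windows in the table.

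Comparing KO cells with and without UV addresses whether the mark on these messages changes after UV damage without METTL3. KO plus UV held 123 member peaks and KO minus UV 209, a difference of -41.1%, against -31.6% over all genes, with 2 and 3 IP libraries behind the lists. Of 82 members with a peak in either list, 5 (6.10%) carried one in KO plus UV alone and 23 (28.0%) in KO minus UV alone. The background was 10.6% and 29.2% of genes, so the share found without UV alone lay near it. With 3 or more KO minus UV peaks, 9 of 35 members (25.7%, interval 14.2 to 42.1) had none in KO plus UV, where the background was 24.6%. With 3 or more KO plus UV peaks, 1 of 16 members, BRD2, had none in KO minus UV (6.25%, background 1.91%).

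Among the 9 without a KO plus UV peak were 3 CHD remodellers, ATPases named for their chromodomains and helicase domain. CHD6 had 0 peaks in KO plus UV against 6 in KO minus UV, and CHD3, a NuRD ATPase, and CHD9 each had 0 against 4. Of 10 CHD members, 6 had a peak in KO plus UV, against 10 in KO minus UV. Over all genes 57.7% and 72.9% had one. The KO plus UV count thus lay at the background and the KO minus UV count above it. KDM2B, a histone H3 lysine 36 demethylase that recruits Polycomb complexes, had 0 against 5. PHF3 and the PRDM zinc finger protein PRDM4 each had 0 and 4, and ARID2, PHF8 and SMARCA2 each had 0 and 3. SMARCA2 is an alternative ATPase of SWI/SNF, and ARID2 the signature subunit of its PBAF form.

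Some members ran the other way, among them BRD2 and BRD3, bromodomain proteins that bind acetylated histones. BRD2 (chromosome 6, 32968594 to 32981505) had peaks at 1381 to 1540, 3381 to 3497 and 4231 to 4401 in KO plus UV and none in KO minus UV. BRD3 had 1 peak in KO plus UV, at 5001 to 5174, and none in KO minus UV. ARID3A and SMARCC2 likewise had 1 peak in KO plus UV and none in KO minus UV.

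Members found in KO minus UV and not in KO plus UV had longer genes in the median than those found in both. The 23 members with a KO minus UV peak and no KO plus UV peak had a median gene length of 112 kb, and the 54 with a peak in both had 48.7 kb. Over all genes the medians were 41.1 kb and 32.3 kb. For members with 3 or more KO minus UV peaks they were 174 kb and 67.1 kb, and over all such genes 92.6 kb and 57.4 kb. Short genes were present on both sides, and the ranges overlapped. The part of gene length in the difference was not tested.

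**Figure D3:**
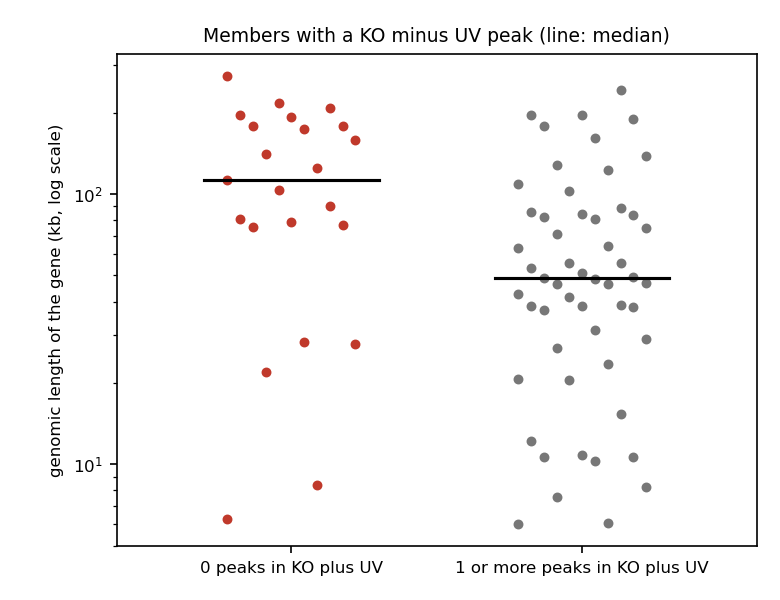
Genomic length in kb (log scale) of each member with a KO minus UV peak, 23 with 0 peaks in KO plus UV at the left and 54 with 1 or more at the right; each point is 1 gene and the line is the median. The medians are 112 kb and 48.7 kb, and the 2 sets of points overlap over most of their range.

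Where both KO lists held the member, peaks were more often fewer with UV: of 54 members, 7 had more in KO plus UV, 27 (50.0%) had fewer and 20 had equal numbers. Over all genes 29.2% had fewer. Among those with 3 or more KO minus UV peaks, 18 of 26 members (69.2%, 50.0 to 83.5) and 64.7% of all genes had fewer. Members still held more peaks within that class, 22 of 35 having 4 or more, against 754 of 1688 of all genes. At the level of peaks, 107 of 209 KO minus UV member peaks overlapped no KO plus UV peak (51.2%, 44.5 to 57.9), against 47.0% of all peaks. Counting transcripts found in both lists alone, the values were 32.9% (25.9 to 40.7) for members and 25.0% for all. In the other direction, 21 of 123 KO plus UV member peaks overlapped no KO minus UV peak (17.1%, 11.4 to 24.7; all peaks 22.6%). ARID5B had 4 peaks in KO plus UV against 7 in KO minus UV, BAZ1B, the Williams syndrome transcription factor, 2 against 5, and CHD7 1 against 4.

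In WT cells this comparison addresses the response to UV with the methyltransferase present. WT plus UV held 257 member peaks and WT minus UV 212, a difference of 21.2%, against 10.6% over all genes, with 4 and 3 IP libraries behind the lists. Of 102 members with a peak in either list, 17 (16.7%, background 18.9%) had one in WT plus UV alone and 8 (7.84%, background 9.36%) in WT minus UV alone. Both shares lay close to the background. Of the 77 members in both lists, 28 had more peaks in WT plus UV, 11 had fewer and 38 had equal numbers, that is 36.4% with more, against 22.5% over all genes. For members with 3 or more WT plus UV peaks that were present in both lists, 21 of 40 had fewer in WT minus UV (52.5%, 37.5 to 67.1), close to the 49.7% of all such genes. For those with 3 or more WT minus UV peaks, 10 of 36 had fewer in WT plus UV (27.8%, 15.8 to 44.0), against 44.3% of all such genes.

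Of the 17 members found in WT plus UV and not WT minus UV, 3 were in the ISWI group, remodellers that space nucleosomes. BAZ1A, the ACF1 subunit (chromosome 14, 34752731 to 34875360), had 5 peaks in WT plus UV and 0 in WT minus UV, at 332 to 570, 1518 to 1718, 2507 to 2808, 2901 to 3037 and 4176 to 4364. SMARCA5, the ISWI ATPase that partners it (chromosome 4, 143513702 to 143557486), had 2 peaks and 0, at 235 to 480 and 3038 to 3220. BAZ2B had 1 and 0. All 7 ISWI members had a peak in WT plus UV and 4 did in WT minus UV, where 83.4% and 74.6% of all genes had one. This leaves the WT plus UV count near the background and the WT minus UV count below it. BAZ1A, SMARCA5 and BAZ2B had no KO peak either, and they are 3 of the 10 members found in WT plus UV and no other list (9.52%, background 6.97%). PHC1, KAT14, KAT8, HDAC11, KDM7A, PHF21B and SMARCE1 were the other 7. PHC1, a Polycomb PRC1 subunit, was named in the rule with this pattern known. The first of its 2 peaks, at 1024 to 1630, was 607 bases wide.

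Some members with several WT plus UV peaks had KO peaks too and none in WT minus UV. CHD2, a chromatin remodeller mutated in epilepsy (chromosome 15, 92900324 to 93027996), had 2 peaks in KO plus UV, 4 in KO minus UV, 4 in WT plus UV and 0 in WT minus UV. Its last peak ran 6347 to 6548 in KO plus UV, 6334 to 6550 in KO minus UV and 6345 to 6548 in WT plus UV. CHD9 (chromosome 16, 53054991 to 53327497) had 0, 4, 4 and 0 in that order. PHF12, a subunit of SIN3 corepressor complexes, had 2, 3, 3 and 0. These are 3 of the 5 members with at least 3 peaks in WT plus UV and none in WT minus UV, with BAZ1A and PRDM10. The 5 of 45 are 11.1% (4.84 to 23.5), where the background was 7.05%. CHD9, KDM2B and PRDM10 were found in KO minus UV and WT plus UV and nowhere else (2.86%, background 3.82%).

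Members found in WT minus UV and not WT plus UV included ARID3B, CBX7, KAT2B, PHF5A, PHF6, SMARCB1 and UBN2. Of these, ARID3B, KAT2B, PHF5A, PHF6 and UBN2 had no KO peak, 5 members of 105 (4.76%, background 4.40%). UBN2, a subunit of the HIRA complex that deposits histone H3.3 (chromosome 7, 139231237 to 139330428), had 5 peaks, the last at 3912 to 4160. It too was named in the rule with its pattern known, and 4 of the 5 members were taken by family prefix. ARID3B had peaks at 367 to 570, 1925 to 2140 and 2491 to 2704. PHF6, a nucleolar PHD protein mutated in leukaemia, had 611 to 883 and 1105 to 1302, and PHF5A and KAT2B had 1 peak each. With 3 or more WT minus UV peaks, 2 of 38 members, ARID3B and UBN2, had none in WT plus UV (5.26%, background 5.06%).

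Few members had counts that separated both UV lists from both lists without UV. BRD3 and SETD5 had more in each UV list (1.90%, background 3.65%), and BAZ1B, CBX5, CBX7 and PRDM4 had fewer (3.81%, background 6.05%). Both shares lay below the background. These counts were not recomputed with neighbouring peaks merged.

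Peak by peak, 88 of 257 WT plus UV member peaks overlapped no WT minus UV peak (34.2%, 28.7 to 40.2; all peaks 30.0%), and 41 of 212 WT minus UV member peaks overlapped no WT plus UV peak (19.3%, 14.6 to 25.2; all peaks 22.4%). Counting transcripts found in both lists alone, the first share was 24.2% (19.1 to 30.2), against 17.3% of all peaks. The WT plus UV member peaks without an overlap had a median width of 176.5 bases and those with one 218. Where the WT lists overlapped, the centres of 169 member peaks were a median of 10.0 bases apart, against 9.5 over all peaks.

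**Figure D4:**
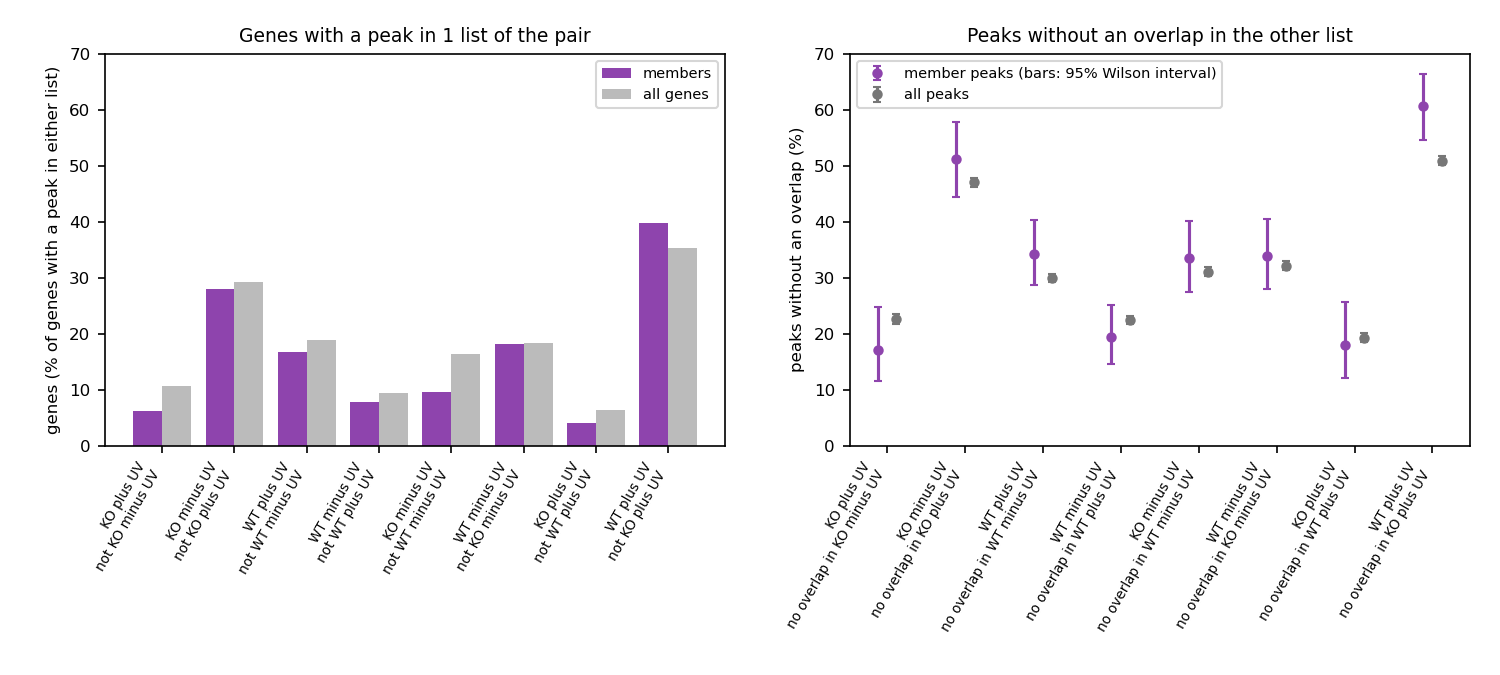
Left, genes with a peak in 1 list of a pair and not the other, as a percentage of genes with a peak in either, for members (purple) and all genes (grey). Right, percentage of the peaks of a list with no overlap in the other, for member peaks and all peaks, with 95% Wilson intervals; the WT plus UV peaks without a KO plus UV overlap stand at 60.7% for members and 51.0% for all.

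The genotypes without UV were compared to see which member peaks differ between KO and WT cells. Here both lists came from 3 IP libraries, and member peaks numbered 209 in KO minus UV and 212 in WT minus UV. The difference was -1.42%, against -0.722% over all genes, so the KO list held nearly as many peaks as the WT list. Whether the peaks depend on METTL3 was not tested. Of 94 members with a peak in either list, 9 (9.57%, background 16.4%) had one in KO minus UV alone and 17 (18.1%, background 18.4%) in WT minus UV alone. With peaks of at least 150 bases alone these counts were 16 and 18, so the gap between them depends on the narrow peaks. The shares over all genes at this width are not given here. By family prefix alone the lists held 207 and 200.0 member peaks, which turns the small difference round. Members in WT minus UV alone then numbered 15 of 91 (16.5%). The 9 were CBX1, CHD2, CHD5, CHD9, HDAC8, KDM2B, PHF12, PHF19 and PRDM10. CHD5, a NuRD ATPase known from neurons, had 2 peaks in KO minus UV and 0 in each other list. With 3 or more KO minus UV peaks, 5 of 35 members (14.3%, 6.26 to 29.4) had none in WT minus UV, against a background of 6.75%, namely CHD2, CHD9, KDM2B, PHF12 and PHF19. With 3 or more WT minus UV peaks, 5 of 38 (13.2%, 5.75 to 27.3) had none in KO minus UV, against a background of 9.88%, namely ARID3B, SMARCA4, SMARCC2, SUZ12 and UBN2. SUZ12 and UBN2 were named in the rule with earlier results of these lists known, so this share is partly set by that choice. Without an overlap in the other list were 70 of 209 KO minus UV member peaks (33.5%, 27.4 to 40.1; all peaks 31.1%) and 72 of 212 WT minus UV member peaks (34.0%, 27.9 to 40.6; all peaks 32.1%).

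Peaks shared by these 2 lists had centres further apart in the median on members than over all peaks. The median distance between centres was 19.0 bases over 139 overlapping member peaks and 13.0 over all peaks. Member peaks were also wider, with medians of 186 bases in KO minus UV and 201 in WT minus UV. Over all genes these were 182 and 186, and the part of width in the distance was not tested. KO minus UV peaks were narrower than their WT minus UV partner in 60.4% of the member pairs and 53.3% of all. With UV, the distance was 20.0 bases over 101 member peaks and 12.5 over all, and KO plus UV peaks were the narrower in 65.3% of member pairs and 63.7% of all.

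With UV, KO cells held 123 member peaks and WT cells 257, a difference of -52.1%, against -38.6% over all genes. The lists rest on 2 and 4 IP libraries, the most unequal pair. Of 98 members with a peak in either list, 4 (4.08%, background 6.38%) had one in KO plus UV alone, among them CBX1, PHF19 and SMARCB1, and 39 (39.8%, background 35.2%) in WT plus UV alone. By family prefix the latter were 36 of 95 (37.9%). Among members with at least 3 WT plus UV peaks, 14 of 45 (31.1%, 19.5 to 45.7) had none in KO plus UV, against a background of 29.1%. In the other direction it was 0 of 16, against a background of 1.06%. Where both lists held such a member, 25 of 31 (80.6%, 63.7 to 90.8) had fewer in KO plus UV, against 65.9% of all such genes. Of WT plus UV member peaks, 156 of 257 (60.7%, 54.6 to 66.5) overlapped no KO plus UV peak, against 51.0% of all peaks. On transcripts in both lists the values were 36.5% (29.4 to 44.2) and 25.5%. In the reverse direction, 22 of 123 KO plus UV member peaks had no WT plus UV overlap (17.9%, 12.1 to 25.6), against 19.3% of all.

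Across both UV states, 21 members (20.0%) had fewer peaks in both KO lists than in either WT list, where the background was 13.1% of genes. Another 4 (3.81%, background 4.58%) had more in both KO lists. KAT6B, a MYST acetyltransferase (chromosome 10, 74824936 to 75032624), had 0 peaks (KO plus UV) and 1 peak (KO minus UV) without METTL3, against 7 in WT plus UV and 6 in WT minus UV. Its KO minus UV peak, at 6881 to 6980, had the minimum width of 100 bases and overlapped a WT peak. In WT minus UV the peaks ran 811 to 1053, 3832 to 4079, 4941 to 5040, 6003 to 6220, 6368 to 6722 and 6831 to 6952. KDM5A had 4 and 4 peaks in the KO lists, against 7 in WT plus UV and 6 in WT minus UV. The WT peaks at 4003 to 4229 (plus UV) and 4021 to 4220 (minus UV), and those at 6261 to 6409 and 6167 to 6411, had no KO counterpart. Members hold more peaks than other genes, and the part of peak number in the count of 21 was not tested. The counts of 21 and 4 also depend on how continuous stretches were divided into peaks. They were not recomputed with neighbouring peaks merged. BPTF and SUZ12, both in the 21, were named in the rule with earlier results known.

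SWI/SNF subunits were among the 21. SMARCA4, the BRG1 ATPase (chromosome 19, 10961030 to 11062273), had 0 peaks in each KO list, against 2 in WT plus UV and 3 in WT minus UV. Its WT peaks lay at 1831 to 2048 and 5063 to 5312 with UV and at 1821 to 2047, 2141 to 2420 and 5069 to 5312 without it. SMARCC2, a scaffold subunit, had 1 and 0 in the KO lists in the order plus UV and minus UV, against 4 and 3 in the WT lists. SMARCC1, its paralogue, had 0 and 2, against 3 and 3, and ARID2 0 and 3, against 5 and 5. SMARCD3 had 0 and 0, against 1 and 1. Of the 14 SWI/SNF members, 8 had a peak in KO plus UV, 10 in KO minus UV, 13 in WT plus UV and 13 in WT minus UV, and 6 had one in every list. Over all genes the shares were 57.7%, 72.9%, 83.4% and 74.6% in that order. The counts in the KO lists thus lay at the background and those in the WT lists above it. SMARCB1, the core subunit lost in rhabdoid tumours, went against these with 1, 2, 0 and 1 peaks.

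In the Polycomb group, which maintains gene silencing, SUZ12, a core subunit of PRC2 (chromosome 17, 31937007 to 32001038), had 0 peaks in each KO list, against 2 in WT plus UV and 3 in WT minus UV. Its widest peak ran 2192 to 2418 with UV and 2169 to 2421 without it. SUZ12, like BPTF, was named in the rule after an earlier analysis of these lists had brought it up. PHF19, a PRC2 accessory factor, had the opposite pattern with 1 and 3 peaks in the KO lists and 0 in each WT list. CBX2, a chromodomain subunit of PRC1, had 2 in each KO list and 3 in each WT list, the additional WT peak lying at 831 to 970 in both. CBX6 had 4, 3, 2 and 3 peaks. Of 8 Polycomb members, 4 had a peak in KO plus UV and 6 in each other list, which is near the shares of all genes, 57.7% in KO plus UV, 72.9% in KO minus UV, 83.4% in WT plus UV and 74.6% in WT minus UV.

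The other members with fewer peaks in both KO lists were ARID3A, ARID4B, BPTF, CHD7, HDAC5, HDAC9, KDM4B, KDM8, PHF20L1, PHF3, SETD4 and SETDB1. KDM4B, a histone H3 lysine 9 demethylase, had 0 and 0 in the KO lists, against 3 and 2 in the WT lists. CHD7, mutated in CHARGE syndrome, had 1 and 4, against 8 and 6, and BPTF, the large subunit of the NURF remodeller, had 0 and 2, against 4 and 4. SETDB1, a histone H3 lysine 9 methyltransferase, had 1 and 2, against 3 and 3. Members with more peaks in both KO lists were CBX1, HDAC6, HDAC7 and PHF19. HDAC6, a mainly cytoplasmic tubulin deacetylase, had 4 and 4 in the KO lists, against 2 and 3 in the WT lists. Its KO plus UV peaks included 3691 to 3868 and 3869 to 4061, which abut. KO minus UV had 3731 to 3873 and 3901 to 4063 there, and WT minus UV had 1 peak, at 3721 to 3870. The higher HDAC6 count in both KO lists thus depends on how this stretch was divided. CBX1, or HP1 beta, had 1 and 2, against 0 and 0.

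Grouped by presence over the lists, 8 members (7.62%, background 7.12%) were found in the WT lists and neither KO list, namely HDAC9, KDM4B, KDM8, PHF20L1, SETD4, SMARCA4, SMARCD3 and SUZ12. Of these, 7 were taken by family prefix, and SUZ12 was named in the rule with earlier results known. CBX1 and PHF19 were found in the KO lists and neither WT list (1.90%, background 2.00%). A further 18 members (17.1%, background 13.5%) had a peak in every list other than KO plus UV, among them ARID2, BPTF, CHD3, CHD6, KAT6B, PHF3, PRDM4, SMARCA1, SMARCA2 and SMARCC1. By family prefix they were 17, without BPTF. In KO minus UV alone there was 1 member (0.952%, background 4.24%) and in KO plus UV alone 0 of 105 (background 1.75%). Of the patterns named in this paragraph, those of a single KO list lay below the background, and the others near it or somewhat above. Other patterns also lay below it. A peak in every list other than WT minus UV was found on 2.86% (background 4.62%), and in every list other than KO minus UV on 2.86% (4.21%). Both UV lists alone held 0.952% (1.97%), and both lists without UV alone 0.952% (2.27%).

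**Figure D5:**
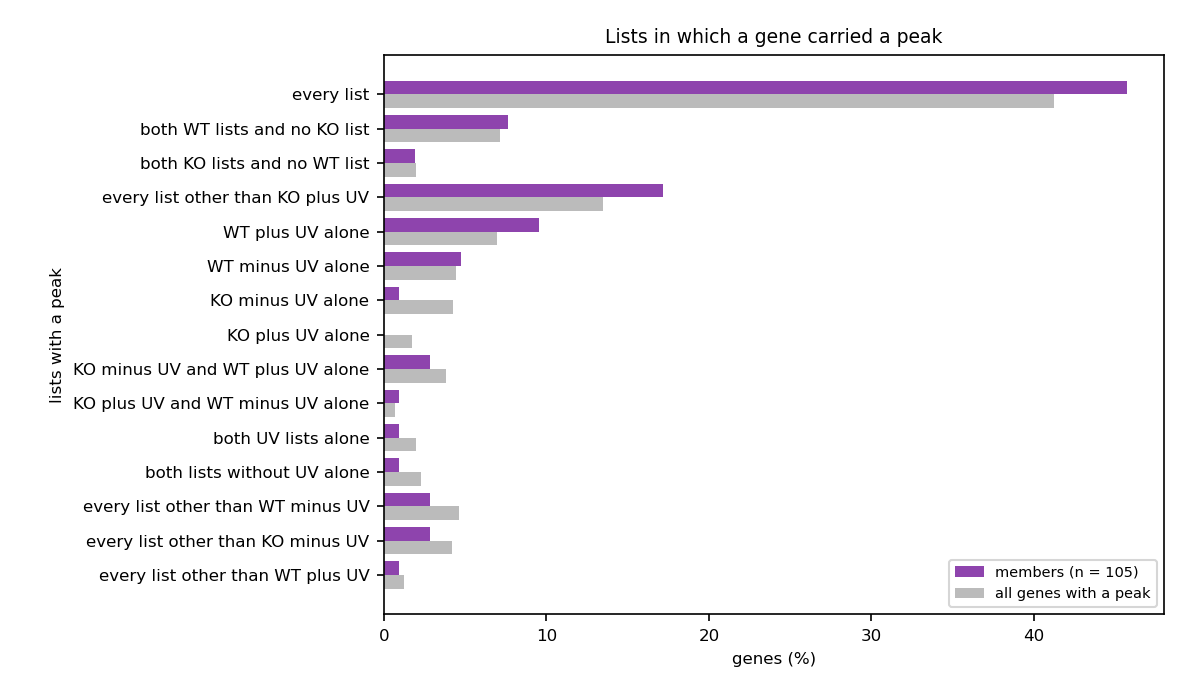
Percentage of the 105 members (purple) and of all 9560 genes with a peak (grey) by the lists in which they carried one; each gene falls in 1 row and rows are named by the lists that hold a peak. Members stand at 45.7% for every list and 17.1% for every list other than KO plus UV, against 41.2% and 13.5% of all genes.

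The counts by role stand beside shares over all genes of 57.7% in KO plus UV, 72.9% in KO minus UV, 83.4% in WT plus UV and 74.6% in WT minus UV. The demethylases had a peak on 10 of 15 members in KO plus UV, 12 in KO minus UV, 15 in WT plus UV and 13 in WT minus UV. Their peaks numbered 27, 40, 47 and 37. KDM2A had 3 peaks in every list, and KDM6B, which removes methyl groups from histone H3 lysine 27, had 2, 3, 3 and 3. The SETD and PRDM members, grouped as methyltransferases by symbol alone, had a peak on 5 of 12 in KO plus UV. They had one on 11 in KO minus UV, 12 in WT plus UV and 11 in WT minus UV. Every PRDM member, that is PRDM10, PRDM11, PRDM15, PRDM2 and PRDM4, lacked a KO plus UV peak and had one in KO minus UV. With SETD6 they were 6 of the 11 in this role with a KO minus UV peak. Over all genes with a KO minus UV peak, 32.6% had none in KO plus UV, a lower share. Deacetylases had a peak on 7, 7, 9 and 7 of 9 members in the same list order, with 13, 14, 15 and 13 peaks. Acetyltransferases had one on 3, 4, 6 and 5 of 7, and the 3 with a peak in every list were KAT2A, KAT5 and KAT7.

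The members were set beside 73 other chromatin genes with a peak, from a list of 80 that includes subunits of NuRD, Polycomb, INO80 and SIN3 complexes. Beside the member shares given above, the other chromatin genes had a peak in 72.6% of cases in KO plus UV, 87.7% in KO minus UV, 90.4% in WT plus UV and 89.0% in WT minus UV. A peak in every list was found on 45.7% of members and 57.5% of these genes. The gap was thus widest in the KO lists. SRCAP, a remodeller ATPase, had 7 peaks in each list. ASH1L, a histone H3 lysine 36 methyltransferase, had 0 peaks in KO plus UV, 10 in KO minus UV, 8 in WT plus UV and 4 in WT minus UV. ATRX, a heterochromatin remodeller, had 0, 4, 4 and 1, and JARID2, a PRC2 cofactor, 0, 5, 5 and 1. Of genes with 3 or more KO minus UV peaks, 7 of 25 in this set had none in KO plus UV (28.0%, 14.3 to 47.6), near the background of 24.6%.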

How the data were processed

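Reads were aligned with TopHat2 2.0.14 to hg38, per the submitters' processing notes. Which caller and threshold made the peaks, how inputs entered and which annotation release was used were not given in the sources used here. Deposited lists, 1 per condition for all its replicates, have values of no signal unit (other): the authors gave the start and end of each peak along a RefSeq transcript, with empty name and score fields. Positions were read as counted from 1 with both ends included, which makes the narrowest peak 100 bases.

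Python 3.11.15 was used throughout. Transcripts were matched to symbols through a RefSeq table (GRCh38.p14), 9563 of 9674. The members, roles and lists were chosen with earlier results of these data known. Peaks were shared when they overlapped by at least 1 base on the same transcript; overlap code was tested on simulated data. No test between conditions was made, since each has 1 list. Genes named with positions were the 10 with most peak bases, up to 8 per comparison and direction and up to 4 per role. Figures were drawn with matplotlib 3.10.9. Alternatives covered peak width, overlap, merging, the number of peaks required, and, added after the data were seen, members by family prefix and omission of the KO plus UV list. Peak sequences were not analysed here, and the values of 1 member are not reported here by gene, though it is in the totals.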

Additional observations from a re-analysis of the deposited data

Results flagged for a closer look

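With UV, member peaks differed in opposite directions in the genotypes. The difference, plus UV minus minus UV, was -86 peaks in KO cells and 45 in WT cells. Over all genes it was -4350 and 1465, that is -31.6% and 10.6%, against -41.1% and 21.2% for members. Members with a peak differed by -18 in KO cells and by 9 in WT cells. In KO cells 56.2% of members had one with UV and 73.3% without, against 57.7% and 72.9% of all genes. In WT cells the shares were 89.5% and 81.0%, against 83.4% and 74.6%. Both changes in share lay near those of all genes. The difference between genotypes was not tested, since each condition has 1 list, and the lists rest on 2, 3, 4 and 3 IP libraries in the order KO plus UV, KO minus UV, WT plus UV and WT minus UV. Over all genes, 1141 of 9560 had fewer peaks with UV in KO cells and more in WT cells, and 249 the reverse. Among the 105 members 23 and 2 did so, the first a larger share than over all genes and the second a smaller one. Members also held more peaks, with a mean of 2.73 in WT plus UV against 1.92 over all genes with one. The part of peak number in these shares was not tested.

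On CHD9, KDM2B and PRDM10 the presence of any peak went opposite ways, again untested. CHD9 differed by -4 in KO cells and 4 in WT cells, KDM2B by -5 and 1, and PRDM10 by -1 and 3. These 3 shared the same pair of lists, KO minus UV and WT plus UV, as did 3.82% of all genes (2.86% of members).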

How the results depend on the processing

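Of 97 recomputed values under the alternatives, 84 stayed within 1.5 times the count or within the Wilson interval. The small differences between KO minus UV and WT minus UV did change direction: member peaks were 209 and 212, but 207 and 200.0 by family prefix alone, and shares without an overlap were 33.5% and 34.0%, but 33.8% and 31.0% by prefix and 24.5% and 22.2% for members in both lists. Requiring at least 2 peaks against 0 gave 1 member in KO plus UV alone of the KO pair. In the WT pair it gave 8 in WT plus UV alone and 3 in WT minus UV alone. The pair without UV had 8 in WT minus UV alone. Between the UV lists there were 0 in KO plus UV alone and 25 in WT plus UV alone. Shares over all genes at this setting are not given here, so these counts have no background beside them. Restricting to members with a peak in both lists lowered the share of peaks without an overlap to 32.9% for KO minus UV against KO plus UV, 24.2% and 13.2% for WT plus UV and WT minus UV in the WT pair, the pair just given, and 36.5% for WT plus UV against KO plus UV, which follows from dropping transcripts with no partner. With peaks of at least 150 bases alone, members in KO minus UV alone against WT minus UV numbered 16 and not 9. The cause was not tested, and the share over all genes at this width is not given here. Members by family prefix alone, and patterns without the KO plus UV list, were chosen after seeing the data and moved no single value by that much. No paired analysis was possible because each condition has 1 list for all its replicates, so replicate numbers carry no values, and no replicate could be left out. Motif and transcript-region alternatives were not run, since no transcript sequences or structures were given. Depth is unknown, so a missing peak may be a site below detection.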
